A study of Homo sapiens with 6 samples.

Results

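The apolipoproteins are the proteins that wrap the fat droplets carried in blood plasma. The 10 genes described here are APOA1, APOA2, APOA5, APOB, APOC1, APOC2, APOC3, APOE, APOH and APOM. They were taken by symbol from the platform's probe annotation, out of 20046 named genes and 47323 probes, and each of the 10 was read by a single probe. The choice of the 10 was made with earlier results of these data known. RNA came from cells labelled Huh7, a human line derived from a hepatocellular carcinoma, after 24 h with sorafenib in 3 samples or with DMSO, its solvent, in 3 samples. Sorafenib is a kinase inhibitor given against this cancer; the labels write its dose as 3 mM, and that unit could not be settled. No genetic change was named in either group. The line is 1 tumour-derived line. The series' own design text names 4 liver cancer lines, Huh7 among them, and whether both sets of values described next came from Huh7 could not be settled. Further, nothing in the labels tells separate cultures from repeat samplings of 1 culture, so the p-values cover only the spread among these samples, part of which may be technical.

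Apolipoproteins hold lipoprotein particles together, steer them to receptors, and switch the enzymes that unload or reshape them on or off. Liver cells build APOB into very low density lipoprotein (VLDL), the particle that exports triglyceride, and release APOA1 and APOA2 for high density lipoprotein (HDL), the particle that returns cholesterol to the liver. The smaller C apolipoproteins, APOA5 and APOE move between particles and set how fast lipoprotein lipase empties them and how fast the liver takes up what remains.

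The same 6 sample names carried 2 deposited sets of Illumina beadchip values, raw probe signals (the signal arrays) and a table of normalized values (the value-table arrays), and the 2 sets did not hold the same arrays. A sample's own columns correlated across probes at a Spearman coefficient of 0.848 to 0.863, against 0.846 to 0.863 for columns of different samples and 0.923 to 0.942 for different arrays within a set. Each set was therefore tested by itself, with limma, on log2 levels, and p-values were adjusted over all probes tested in that set with 0.05 as the threshold. Signal arrays had a median probe signal of 120.2 to 144.5, and 16476 to 17476 of 47323 probes were detected on an array. A log2 difference of 1 is a doubling, and every difference below is sorafenib minus DMSO. Markers of liver cells were above the detection filter on all arrays of both sets for 7 of 7 genes (ALB, TTR, SERPINA1, FGB, TF, AHSG and AFP). FGB was near the floor on the signal arrays, at log2 levels of 6.02 to 7.01. The lowest level of a detected probe there was 5.98 to 6.18 by array.

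Of the 10 genes, 7 had a promoter in the RefSeq promoter table for build GRCh38.p14: APOA2, APOA5, APOC1, APOC2, APOE, APOH and APOM. The 4 shown are those of APOA5 and APOM, which had the largest rise and the largest fall among the 7, and of APOC1 and APOC2, which lie near each other on chromosome 19 and of which APOC1 passed the test on the signal arrays and APOC2 in the value table. Each runs 5′ to 3′ on the gene's own strand from 250 bases before the start of transcription to 50 after it. Capitals mark matches, on either strand, to 3 short motifs. They are AGGTCA, the half-site that many nuclear receptors read, CAAAGNNCA, a repeat of the kind bound by HNF4, and TATAAA, the letters of a TATA box. The first 2 motifs can overlap in a sequence that matches both. The windows are chr11:116792371-116792670 on the minus strand for APOA5, chr6:31655644-31655943 on the plus strand for APOM, chr19:44914422-44914721 on the plus strand for APOC1 and chr19:44945801-44946100 on the plus strand for APOC2.
APOA5: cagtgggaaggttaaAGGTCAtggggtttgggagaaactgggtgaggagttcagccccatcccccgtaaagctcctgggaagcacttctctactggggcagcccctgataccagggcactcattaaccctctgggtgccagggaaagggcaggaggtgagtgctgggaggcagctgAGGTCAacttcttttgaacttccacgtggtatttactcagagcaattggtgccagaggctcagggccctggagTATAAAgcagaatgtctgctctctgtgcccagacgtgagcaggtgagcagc
APOM: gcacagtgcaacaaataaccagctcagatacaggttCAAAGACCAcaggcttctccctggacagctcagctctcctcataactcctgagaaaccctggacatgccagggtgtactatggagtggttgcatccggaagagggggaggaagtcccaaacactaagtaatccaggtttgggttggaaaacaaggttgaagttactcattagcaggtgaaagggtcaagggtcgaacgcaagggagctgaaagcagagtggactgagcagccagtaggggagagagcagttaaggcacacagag
APOC1: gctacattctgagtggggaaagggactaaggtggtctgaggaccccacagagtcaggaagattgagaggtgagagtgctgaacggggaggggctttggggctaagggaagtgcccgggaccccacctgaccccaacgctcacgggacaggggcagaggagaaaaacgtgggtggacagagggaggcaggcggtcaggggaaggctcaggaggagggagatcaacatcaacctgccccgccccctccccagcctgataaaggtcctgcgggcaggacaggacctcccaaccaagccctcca
APOC2: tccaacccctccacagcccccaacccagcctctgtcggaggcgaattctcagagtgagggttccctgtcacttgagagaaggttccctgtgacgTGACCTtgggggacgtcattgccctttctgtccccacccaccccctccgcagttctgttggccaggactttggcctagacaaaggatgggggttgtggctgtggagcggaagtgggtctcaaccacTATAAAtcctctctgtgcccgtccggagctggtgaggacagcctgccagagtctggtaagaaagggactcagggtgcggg
AGGTCA matched 2 times in the APOA5 window and 1 time in that of APOC2, and was present in 13.8% of the 35116 promoters of the table. CAAAGNNCA matched 1 time, in the APOM window, and was present in 5.28% of all promoters. TATAAA matched in the APOA5 and APOC2 windows, against 11.5% of all promoters. Counted from the start of transcription, the match began at -1 in the APOA5 window and at -30 in that of APOC2. Whether either run acts as a TATA box was not tested. APOC1 had no match to any of the 3 motifs, and neither did APOA2, APOE and APOH, whose windows are not shown. Over the 7 promoters, AGGTCA was thus present in 2, CAAAGNNCA in 1 and TATAAA in 2. A match is only a run of letters and shows no bound factor.

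On the signal arrays, apolipoprotein RNA moved both ways under sorafenib. The RNA is that of a whole culture, so fewer cells with a transcript and less of it per cell cannot be told apart. APOC3, APOA5, APOE, APOA1 and APOC1 rose, APOM, APOB and APOA2 fell, and APOC2 and APOH did not pass the test. All 10 probes were detected on all 6 arrays. Of the 10, 5 were called higher and 3 lower, where 14.1% and 12.6% of the 17115 probes tested were called in these directions and 26.8% in either. Sorafenib and DMSO arrays did not overlap for those 8 genes, 5 of them higher and 3 lower, against 42.9% of all probes tested (21.8% higher and 21.2% lower). With the replicate number as a block 8 of the 10 passed, against 39.4% of probes. The median size of change over the 10 genes, whatever its sign, was 0.50 on the log2 scale, beside 0.20 over all probes tested, and the median signed change was 0.21, beside -0.01 over all probes. Since the 10 genes were chosen with earlier results known, their counts and medians in either set were not tested against those of all probes.

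**Figure D1:**
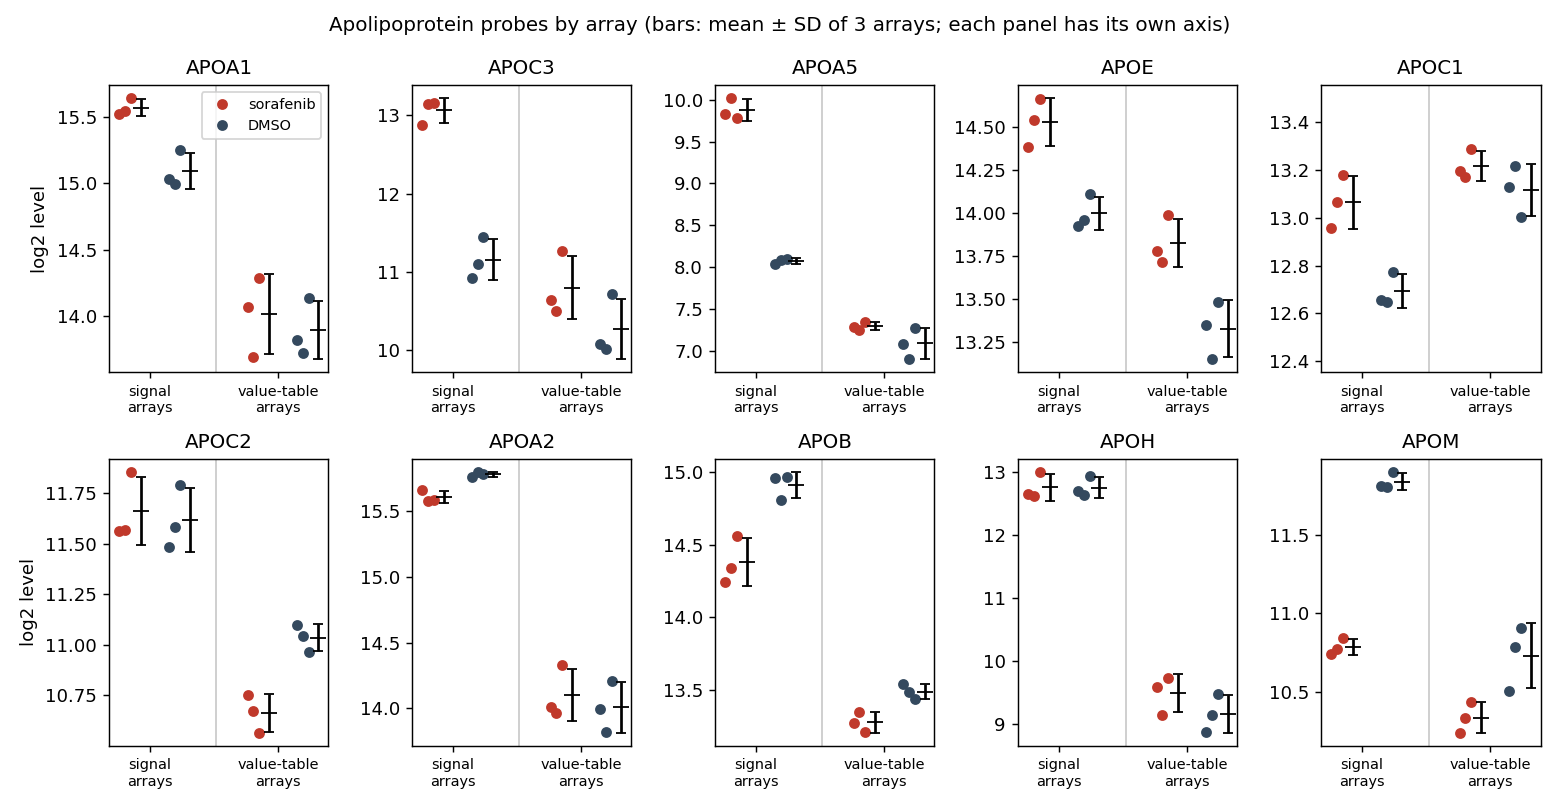
Log2 level of each apolipoprotein probe on every array (vertical axes, log2 units, a separate range in each panel), with the signal arrays left and the value-table arrays right of the grey line. Red points are the 3 sorafenib samples and dark points the 3 DMSO samples, and bars are mean ± SD. APOC3 and APOA5 stood far apart between groups on the signal arrays, APOM lay lower with sorafenib in both sets, and APOC2 was separated on the value-table arrays and overlapped on the signal arrays.

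APOC3, APOA5 and APOA1 lie side by side on chromosome 11, with APOA4 between APOA5 and APOC3. APOC3 blocks lipoprotein lipase and slows the removal of triglyceride-rich particles. Its log2 level was 12.88, 13.15 and 13.16 in the 3 sorafenib samples, against 10.92, 11.10 and 11.45 in the 3 DMSO samples of the signal arrays. The lowest sorafenib sample was thus well above the highest DMSO sample. The difference was 1.91 ± 0.13 (SE, n = 3 each), a 3.75-fold rise (95% interval 3.08 to 4.58, adjusted p = 1.34e-05), and it was the largest among the 10.

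APOA5 does the reverse job, helping lipase to clear triglyceride, and is made almost only by the liver. It had log2 levels of 9.83, 10.02 and 9.78 with sorafenib, against 8.03, 8.09 and 8.09 with DMSO. Both groups were tight and lay far apart. Its difference was 1.81 ± 0.10 (SE, n = 3 each), a 3.50-fold rise (95% interval 3.02 to 4.06, adjusted p = 3.51e-06).

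APOA1 is the main protein of HDL and the activator of LCAT, the enzyme that esterifies HDL cholesterol. It measured 15.52, 15.55 and 15.64 with sorafenib, against 15.03, 14.99 and 15.25 with DMSO. The groups did not overlap, with the DMSO sample of replicate 3 nearest to the sorafenib samples. The rise was 1.39-fold (0.48 ± 0.07 on the log2 scale, SE, adjusted p = 0.00130). APOA1 signals before normalization were 47387 to 49082 in sorafenib samples and 33848 to 37210 in DMSO samples, on arrays whose brightest probe read 58694 to 61954. APOA4, an apolipoprotein of intestinal particles and the remaining member of this gene row, rose as well, with 8.92, 9.03 and 8.90 in sorafenib samples, against 7.64, 8.05 and 7.80 in DMSO samples (2.17-fold, adjusted p = 0.000235).

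Of 9 genes beside this row on chromosome 11, all tested, 2 rose, 0 fell and 7 did not pass on the signal arrays, where 26.8% of all probes tested were called, and the median change was 0.06. The rises were of RNF214, a ring-finger protein (0.32, adjusted p = 0.0146), and of SIDT2, a lysosomal membrane protein (0.32, adjusted p = 0.0150). With the replicate number as a block, 2 rose and 2 fell, where 39.4% of all probes were called. Without DMSO replicate 2 the count of rises was 1. On the value-table arrays, where 17.7% of all probes were called, 1 of the 9 rose, RNF214 (0.27, adjusted p = 0.0335). SIDT2 had a difference of 0.02 there (adjusted p = 0.850).

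APOE, APOC1 and APOC2 lie close together on chromosome 19. APOE is the ligand by which remnant particles dock on receptors of the liver cell surface. Its log2 level was 14.38, 14.54 and 14.66 with sorafenib, against 13.93, 13.96 and 14.11 with DMSO on the signal arrays. No DMSO sample reached a sorafenib sample, and the rise was 1.44-fold (0.53 ± 0.08, SE, adjusted p = 0.00129).

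APOC1 is an inhibitor of the cholesteryl ester transfer protein. It stood at 12.96, 13.06 and 13.18 with sorafenib, against 12.66, 12.65 and 12.78 with DMSO. The groups were separate but near each other, and the rise was 1.29-fold (0.37 ± 0.07, SE, adjusted p = 0.00450). APOC2, the cofactor that lipoprotein lipase needs, measured 11.56, 11.57 and 11.86 with sorafenib, against 11.48, 11.58 and 11.79 with DMSO. The groups overlapped throughout, and the difference was 0.04 (95% interval -0.18 to 0.27, adjusted p = 0.784).

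Of 11 genes beside the chromosome 19 row, 8 were tested on the signal arrays, with 1 higher, 2 lower and a median change of -0.12. The share called over all probes was 26.8%. BCL3, a co-activator of NF-kappaB, rose by 0.35 (adjusted p = 0.0292), TOMM40, the import channel of the outer mitochondrial membrane and the direct neighbour of APOE, fell by 0.63 (adjusted p = 5.73e-05), and ZNF296, a zinc finger protein, fell by 0.32 (adjusted p = 0.0115). The other 5 did not pass. With the replicate block, where 39.4% of all probes were called, 2 rose and 3 fell, and without DMSO replicate 2 the counts were 0 and 1. TOMM40 passed in all 14 alternative settings run for it, and BCL3 in 9 of 14.

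APOM, APOB and APOA2 fell on the signal arrays, and each lies on a chromosome of its own (6, 2 and 1). APOM sits on HDL and carries sphingosine 1-phosphate. It measured 10.74, 10.77 and 10.84 with sorafenib, against 11.82, 11.81 and 11.91 with DMSO. All sorafenib samples lay about 1 log2 unit below all DMSO samples. The fall was 2.08-fold (-1.06 ± 0.07, SE, adjusted p = 8.20e-06).

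APOB is the large structural protein of VLDL and LDL. Its log2 level was 14.24, 14.34 and 14.56 with sorafenib, against 14.96, 14.81 and 14.96 with DMSO. The samples did not overlap, although sorafenib replicate 3 came near DMSO replicate 2. The fall was 1.45-fold (-0.53 ± 0.08, SE, adjusted p = 0.00167).

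APOA2, the second protein of HDL, showed the smallest change that passed. Its levels were 15.66, 15.58 and 15.58 with sorafenib, against 15.75, 15.80 and 15.78 with DMSO. The fall of 1.12-fold (-0.17 ± 0.05, SE, adjusted p = 0.0281) passed in 8 of 15 alternative settings and was lost, for example, with median scaling (adjusted p = 0.438). It was also lost without sorafenib replicate 2 or 3 or without DMSO replicate 2 or 3. The signals before normalization, 45113 to 53431 in sorafenib samples and 54800 to 57578 in DMSO samples, were near the brightest reading of the arrays, and whether the scale is compressed there was not tested. APOH, a plasma protein that binds phospholipid and is also called beta-2-glycoprotein I, had 12.645, 12.619 and 12.999 with sorafenib, against 12.688, 12.625 and 12.934 with DMSO. The groups overlapped fully (difference 0.01, 95% interval -0.25 to 0.26, adjusted p = 0.979).

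**Figure D2:**
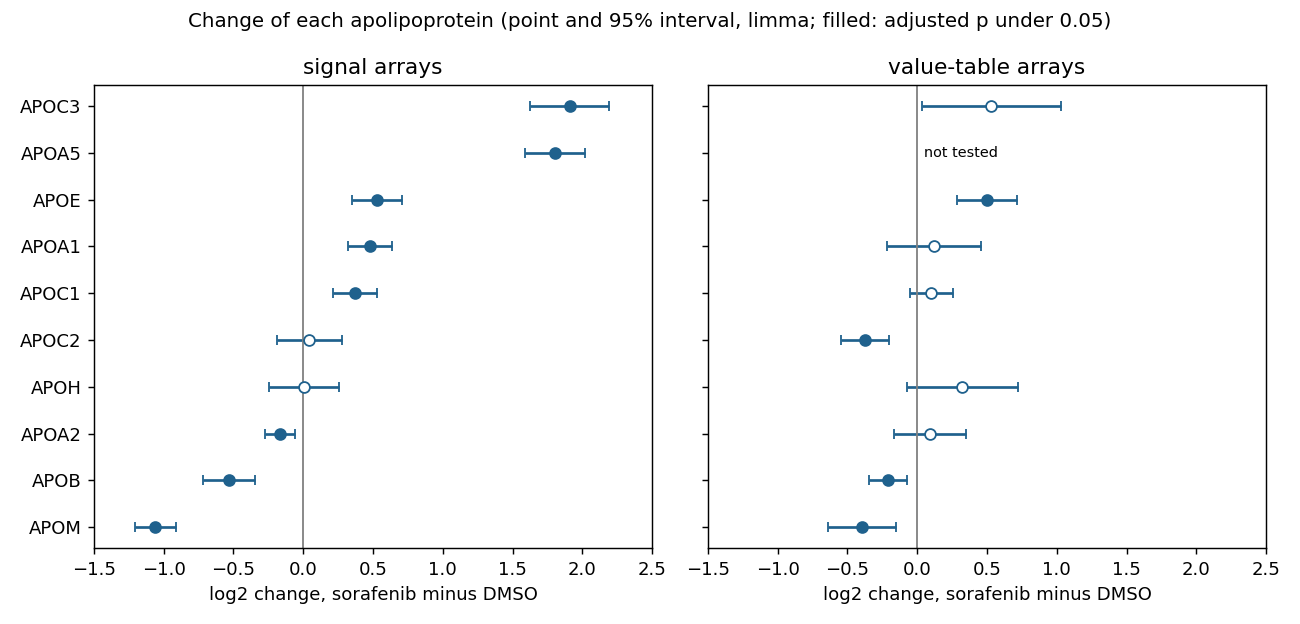
Log2 change of each apolipoprotein, sorafenib minus DMSO (horizontal axes, log2 units), as point and 95% interval from limma, on the signal arrays (left) and the value-table arrays (right). Filled points passed an adjusted p of 0.05. The signal arrays ran from 1.91 for APOC3 to -1.06 for APOM, and the value-table arrays from 0.53 for APOC3 to -0.40 for APOM, with APOA5 not tested.

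The value-table arrays gave fewer calls. Of the 10 genes 9 were above the filter, and 1 was called higher and 3 lower, where 9.08% and 8.66% of the 17122 probes tested were called in these directions and 17.7% in either. The 2 groups did not overlap for 4 of the 9, 1 higher and 3 lower, against 36.9% of all probes tested (18.4% higher and 18.5% lower). The median size of change was 0.32, beside 0.13 over all probes tested. APOE rose in both sets and APOB and APOM fell in both, so that 3 of the 9 genes tested in both were called in 1 direction in both, against 8.45% of the 15217 probes tested in both (4.39% higher and 4.06% lower).

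APOE had 13.78, 13.72 and 13.99 with sorafenib, against 13.35, 13.15 and 13.48 with DMSO on the value-table arrays. The groups were separate, and the rise of 1.41-fold (0.50 ± 0.10, SE, adjusted p = 0.00951) was close in size to that on the signal arrays. It passed in all 13 alternative settings.

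APOM measured 10.24, 10.33 and 10.43 with sorafenib, against 10.50, 10.78 and 10.90 with DMSO. DMSO replicate 1 was only just above the highest sorafenib sample. The fall was 1.32-fold (-0.40 ± 0.11, SE, adjusted p = 0.0335), and it no longer passed without sorafenib replicate 1 or 2 or without DMSO replicate 2 or 3 (adjusted p 0.0891 to 0.115). APOB had 13.27, 13.35 and 13.21 with sorafenib, against 13.54, 13.49 and 13.43 with DMSO. Its fall of 1.16-fold (-0.21 ± 0.06, SE, adjusted p = 0.0399) did not pass in any of the 6 fits that left out a sample (adjusted p 0.0535 to 0.123).

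APOC2, which had not passed on the signal arrays, fell here. It had 10.75, 10.67 and 10.57 with sorafenib, against 11.10, 11.05 and 10.96 with DMSO. Every sorafenib sample was below every DMSO sample, and the fall of 1.30-fold (-0.37 ± 0.08, SE, adjusted p = 0.0112) passed in all 13 alternative settings. Whether the change differed between the 2 sets was not tested for any gene.

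APOC3 had 10.63, 10.50 and 11.26 with sorafenib, against 10.08, 10.01 and 10.71 with DMSO on the value-table arrays. The groups overlapped, since replicate 3 was the highest of both. The difference was 0.53 (95% interval 0.03 to 1.03), or 1.44-fold, and did not pass (adjusted p = 0.132). Within a replicate number the 3 differences were 0.55, 0.48 and 0.55, and with the number as a block the rise passed (adjusted p = 1.81e-05). It also passed without DMSO replicate 3 (0.75, adjusted p = 0.0375).

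APOH had 9.59, 9.15 and 9.73 with sorafenib, against 8.88, 9.15 and 9.47 with DMSO. Its difference of 0.32 did not pass (adjusted p = 0.242) but did with the replicate block (adjusted p = 0.0253), although the differences within a number were uneven at 0.72, 0.00 and 0.25. With the block the value-table counts were 3 higher and 3 lower of 9, where 31.9% of probes were called in either direction.

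APOA1 and APOA2 each overlapped between groups. APOA1 ranged from 13.69 to 14.29 with sorafenib and from 13.72 to 14.14 with DMSO (difference 0.12, 95% interval -0.21 to 0.46, adjusted p = 0.628). APOA2 ranged from 13.96 to 14.33 with sorafenib and from 13.82 to 14.21 with DMSO (0.09, 95% interval -0.16 to 0.35, adjusted p = 0.628). APOC1 ranged from 13.169 to 13.287 with sorafenib and from 13.003 to 13.216 with DMSO (0.10, 95% interval -0.05 to 0.26, adjusted p = 0.356). APOA5 was at 7.28, 7.25 and 7.34 with sorafenib, against 7.08, 6.90 and 7.27 with DMSO, below the filter level of 7.40 on every array, and was not tested.

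**Figure D3:**
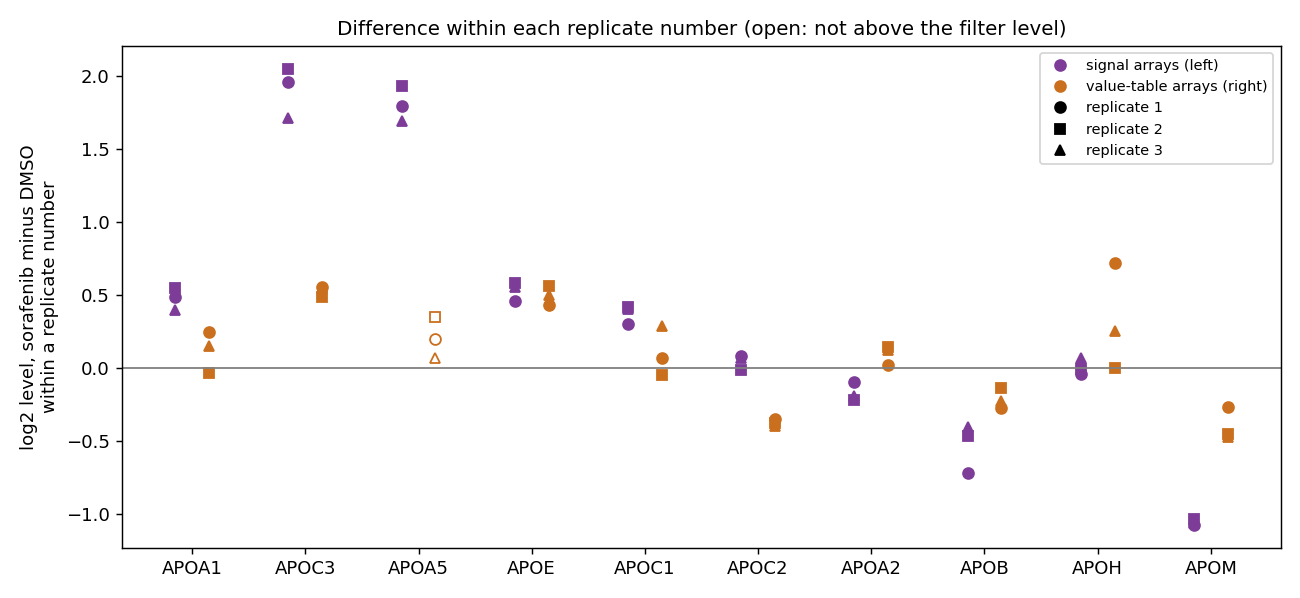
Log2 difference, sorafenib minus DMSO, within each replicate number (vertical axis, log2 units) for each apolipoprotein; purple is the signal arrays and orange the value-table arrays, and the marker shape gives the replicate number. Open markers are APOA5 in the value table, below the filter level. The 3 differences of APOC3 in the value table lay between 0.48 and 0.55, while those of APOH lay between 0.00 and 0.72.

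The sets also differed in how bright the same probes were. On signals without background correction, APOH lay 3.45 log2 units above its level in the value table, APOA5 2.09, APOA2 1.64, APOC3 1.62, APOA1 1.38 and APOB 1.27 units. APOM and APOC2 lay 0.84 units above and APOE 0.69 units, and APOC1 alone lay below, at -0.27. The median absolute difference over the 19020 probes above the filter in either set was 0.39. The sets were normalized separately, so these differences describe the deposited values and carry no test. Liver markers differed between the sets too: on the same scale FGB averaged 7.60 over the 6 signal arrays, beside 14.48 in the value table, and AHSG 14.85, beside 10.42.

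The genes whose profile was closest to that of APOC3 over the 6 signal arrays, by Euclidean distance of log2 levels after removing each gene's mean, were taken from 10513 named genes. They were GSTA2, a glutathione transferase with close sequence relatives (distance 0.21), ETNK2, an ethanolamine kinase (0.30), COL16A1, a collagen chain (0.35), ADGRG1, an adhesion receptor (0.40), and TRIM50, a tripartite-motif protein (0.40). Their correlation with APOC3 was 0.990 to 0.998, which describes 6 arrays that share their 2 groups. In the value table COL16A1 rose by 0.78 (adjusted p = 0.0113), ETNK2 had a difference of -0.17 (adjusted p = 0.359), and another probe of GSTA2 rose by 0.76 (adjusted p = 0.00548). ADGRG1 and TRIM50 were below the filter there.

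Of 16 further apolipoproteins and proteins carried on lipoproteins, 7 were tested on the signal arrays, with 3 higher, 2 lower and a median change of 0.35. The share called over all probes was 26.8% there. Beside APOA4, APOL3, of the APOL family, rose by 0.59 (adjusted p = 0.00780), and PON3, a lactonase carried on HDL, rose by 0.35 (adjusted p = 0.00670). SAA4, the constitutive serum amyloid A of HDL, fell by 0.75 (adjusted p = 0.00125), and APOO, a protein of the mitochondrial inner membrane despite its name, fell by 0.32 (adjusted p = 0.0108). Of these genes 6 were tested on the value-table arrays, where 17.7% of all probes were called, with 3 higher, 1 lower and a median of 0.21. SAA4 fell there by 0.91 (adjusted p = 0.000879), PON3 rose by 0.59 (adjusted p = 0.00801), APOO had a difference of -0.02 (adjusted p = 0.855), and APOA4 and APOL3 were below the filter. PON3 was named after its values were seen.

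Genes that load APOB with lipid and move the particle out of the cell were tested for 19 of 20 listed. On the signal arrays, where 26.8% of all probes were called, 6 rose, 0 fell and 13 did not pass, and the median change was -0.02. DGAT2 and TM6SF2, which act in triglyceride synthesis and in the lipidation of VLDL, each rose by 0.76 (adjusted p = 0.0226 and 0.00368), and DGAT2 passed in 10 of 14 alternative settings. Over these settings the difference ran from 0.43 to 0.95 for DGAT2 and from 0.47 to 0.84 for TM6SF2. Their value-table differences were of the other sign, -0.18 for DGAT2 (adjusted p = 0.161) and -0.27 for TM6SF2 (adjusted p = 0.137), and that of TM6SF2 passed as a fall with the replicate block (adjusted p = 0.0110). MTTP, the transfer protein that puts lipid on nascent APOB, had a difference of 0.29 (adjusted p = 0.182), which passed only with the replicate block (adjusted p = 0.0115). P4HB, the protein disulfide isomerase that is also the second subunit of that transfer protein, had 13.91, 13.93 and 13.80 with sorafenib, against 14.05, 14.02 and 13.94 with DMSO (-0.12, adjusted p = 0.157). With the block 7 rose and 5 fell, where 39.4% of all probes were called. The value-table arrays gave 2 that rose, 2 that fell and 15 that did not pass, and with the block 4 rose and 3 fell. Over all probes of that set 17.7% were called, and 31.9% with the block. CIDEB, a lipid droplet protein needed for VLDL lipidation, rose by 0.58 on the signal arrays (adjusted p = 0.00236) and fell by 0.36 in the value table (adjusted p = 0.0273). The other rises of the signal arrays kept their sign in the value table. KLHL12 rose by 0.39 (adjusted p = 0.00306) and there by 0.36 (adjusted p = 0.00633). DGAT1 rose by 0.73 (adjusted p = 0.00187), beside 0.23 there (adjusted p = 0.0817). PLTP rose by 0.69 (adjusted p = 0.000160), beside 0.17 there (adjusted p = 0.510). CIDEB, KLHL12, DGAT1 and PLTP were named after their values were seen.

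Receptors and uptake proteins moved in both directions. Of 15 listed genes 9 were tested on the signal arrays, where 3 rose, 2 fell and 4 did not pass, with a median change of 0.08. Over all probes of these arrays 26.8% were called. CD36, a fatty acid translocase, measured 9.62, 9.64 and 10.05 with sorafenib, against 7.98, 8.07 and 8.27 with DMSO (3.16-fold, adjusted p = 4.29e-05), and was below the filter in the value table. Its log2 difference of 1.66 ran from 1.37 to 1.74 over the alternative settings. VLDLR and LRP8 are both receptors for APOE. VLDLR rose by 0.96 on the signal arrays (adjusted p = 0.00185) and by 1.10 in the value table (adjusted p = 0.000436). Over the alternative settings of the signal arrays the rise of VLDLR ran from 0.66 to 1.09. LRP8 fell by 1.00 on the signal arrays (adjusted p = 8.58e-05) and by 0.41 in the value table (adjusted p = 0.0114). SORL1, a sorting receptor, fell by 0.38 on the signal arrays (adjusted p = 0.0165), a call lost without sorafenib replicate 1 or without DMSO replicate 1, and was below the filter in the value table. On the value-table arrays 7 were tested, with 1 higher, 2 lower, 4 not passing and a median of -0.07, where 17.7% of all probes were called.

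Of 18 listed lipases, transfer proteins and sterol exporters, 12 were tested on the signal arrays. There 5 rose, 0 fell and 7 did not pass, with a median of 0.28, beside 26.8% of all probes called. ANGPTL4, a secreted inhibitor of lipoprotein lipase, measured 7.53, 7.59 and 7.98 with sorafenib, against 6.51, 6.49 and 5.99 with DMSO (2.58-fold, adjusted p = 0.000843), and was detected on 2 of the 3 DMSO arrays. The size depends on the background correction: without one the difference was 0.77, beside 1.37, and it passed in all 13 alternative settings run for it. Another probe of ANGPTL4 showed a difference of -0.05 in the value table (adjusted p = 0.758). ABCG8, a sterol exporter, rose by 0.54 (adjusted p = 0.0311), passed in 10 of 14 alternative settings and was below the filter in the value table. Without DMSO replicate 2 the count of rises was 2. Of 9 tested on the value-table arrays 1 rose, and 3 with the block, and the median was 0.11. The shares called over all probes were 17.7%, and 31.9% with the block. The rise without the block was of NPC2 (0.55, adjusted p = 0.00241). NPC2 also rose on the signal arrays (0.37, adjusted p = 0.000888) and was named after its values were seen.

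Of 30 listed transcription regulators of apolipoprotein genes, 22 were tested on the signal arrays, with 10 higher, 4 lower, 8 not passing and a median of 0.25. The share called over all probes was 26.8% there. CREB3L3, a liver transcription factor known to drive Apoa4, Apoa5 and Apoc2 in mice, measured 11.26, 11.41 and 11.49 with sorafenib, against 10.43, 10.32 and 10.44 with DMSO (1.99-fold, adjusted p = 4.14e-05). Its difference was -0.17 in the value table (adjusted p = 0.154), where it passed as a fall with the replicate block (adjusted p = 0.0361). CEBPA, a factor of differentiated liver cells, rose by 0.74 on the signal arrays (adjusted p = 0.00125) and had a difference of -0.04 in the value table (adjusted p = 0.748).

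NR0B2, a nuclear receptor that represses others and is induced by bile acids, had the largest fall of the list. Its log2 level was 7.79, 7.70 and 7.33 with sorafenib, against 10.06, 10.13 and 10.17 with DMSO. The groups were more than 2 log2 units apart, and the fall was 5.72-fold (-2.52 ± 0.12, SE, adjusted p = 2.66e-06). NR0B2 was below the filter in the value table. FOXO1, a forkhead factor restrained by insulin and one that acts on APOC3, fell by 0.93 (adjusted p = 0.000259), beside a difference of -0.09 in the value table (adjusted p = 0.649). Of the 30 genes 18 were tested on the value-table arrays, with 3 higher, 1 lower and 14 not passing, and the median was 0.06. Under the block 5 were higher and 2 lower. Over all probes 17.7% were called, and 31.9% under the block. FOXA1 rose in both sets, by 0.70 on the signal arrays (adjusted p = 0.000207) and 0.36 in the value table (adjusted p = 0.00486). FOXO3 did too, by 0.60 (adjusted p = 0.00719) and 0.40 (adjusted p = 0.00834). CEBPB rose in the value table only (0.23, adjusted p = 0.0473), and the fall there was of PPARG (-0.24, adjusted p = 0.0328). FOXA1, FOXO3, CEBPB and PPARG were named after their values were seen. HNF4A was not analysed here.

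Among genes beside the chromosome 19 row, 0 of the 7 tested on the value-table arrays rose and 3 fell, with a median of -0.26. With the block 5 fell. Over all probes 17.7% were called, and 31.9% with the block. TOMM40 fell by 0.53 (adjusted p = 0.00309), and BCL3, which had risen on the signal arrays, fell by 0.72 (adjusted p = 0.00151). ZNF296 had a difference of -0.24 (adjusted p = 0.0584), which passed with the block (adjusted p = 0.0109). CLPTM1, on the far side of APOC2, fell by 0.34 and was named after its value was seen. Over all probes tested in both sets, 0.427% were called in opposite directions.

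**Figure D4:**
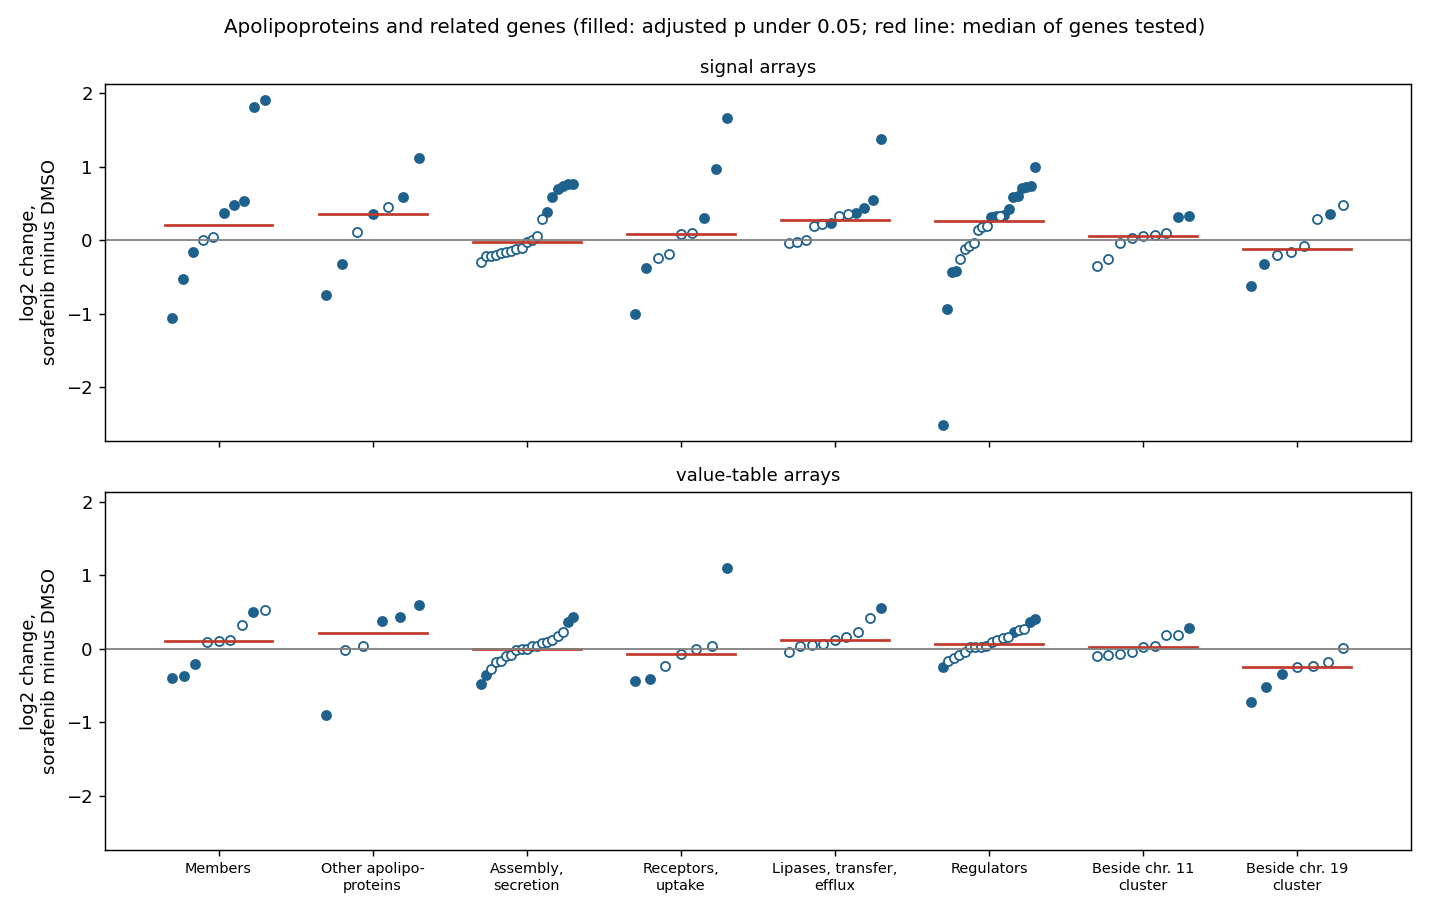
Log2 change, sorafenib minus DMSO (vertical axes, log2 units), of each tested gene of the apolipoprotein set and of the 7 lists of related genes, on the signal arrays (top) and the value-table arrays (bottom). Each point is a gene, filled where its adjusted p was under 0.05, and red lines are medians over the genes tested. The lowest point on the signal arrays is NR0B2 at -2.52, and the highest are APOC3 and APOA5.

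Liver and other markers moved as follows. On the signal arrays TF rose by 0.61 (adjusted p = 0.000447), SERPINA1 rose by 0.40 (adjusted p = 0.0145), AFP fell by 0.29 (adjusted p = 0.00577) and the other 4 of 7 liver markers did not pass (TTR, at -0.30, did with the replicate block, adjusted p = 0.0393), while 0 of 7 passed on the value-table arrays. Over all probes tested 26.8% were called on the signal arrays and 17.7% on the value-table arrays. The summed linear level of the 7 liver markers was 147556 to 168244 in sorafenib samples and 129130 to 154887 in DMSO samples on the signal arrays. In the value table it was 92006 to 106439 in sorafenib samples and 92665 to 108460 in DMSO samples. ALB had a difference of 0.01 on the signal arrays (adjusted p = 0.969) and 0.04 in the value table (adjusted p = 0.924).

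Markers of other cell types were partly above the filter, and more of them in the value table. Of 4 endothelial markers 0 were above it on the signal arrays, with a summed linear level of 121.7 to 130.8 in sorafenib samples and 117.7 to 130.1 in DMSO samples. In the value table PECAM1 was above it on all arrays (9.25 with sorafenib and 9.59 with DMSO on average, adjusted p = 0.108), and the summed level was 838.4 to 974.7 in sorafenib samples and 977.0 to 1259.7 in DMSO samples. Of 5 stromal markers PDGFRB was detected on the signal arrays, in the DMSO samples only, and was at least 1.22-fold lower with sorafenib. LUM was above the filter on all value-table arrays (10.33 with sorafenib and 10.12 with DMSO on average, adjusted p = 0.288). The summed stromal level was 182.9 to 188.7 in sorafenib samples and 217.1 to 250.6 in DMSO samples on the signal arrays, and 1777 to 1965 in sorafenib samples and 1556 to 1879.8 in DMSO samples in the value table. The sums include markers below the filter, and 4 of the 5 stromal markers were detected on no signal array.

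Of 5 immune markers CD68, CD14 and LYZ were above the filter on all arrays of both sets, and PTPRC and CD3E on none. LYZ, lysozyme, which is not restricted to immune cells, fell by 0.82 on the signal arrays (adjusted p = 0.000122) and by 0.99 in the value table (adjusted p = 0.00507). CD68 and CD14 passed in neither set (CD68 0.01 and -0.06, CD14 -0.23 and 0.17, signal arrays before value table). The summed immune level was 7468 to 8296 in sorafenib samples and 12072 to 14217 in DMSO samples on the signal arrays, and 5805 to 8468 in sorafenib samples and 11922 to 13477 in DMSO samples in the value table. This sum is mostly LYZ. With DMSO on the signal arrays LYZ averaged 13.47 on the log2 scale, beside 10.03 for CD68 and 8.44 for CD14.

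Of 3 bile duct markers KRT19 and SOX9 were above the filter on all arrays of both sets and passed in neither, and KRT7 was above it on none. Their summed level was 9514 to 11660.5 in sorafenib samples and 8349 to 11639.9 in DMSO samples on the signal arrays, and 5475 to 6166 in sorafenib samples and 5711 to 6018 in DMSO samples in the value table. Of 3 intestine markers VIL1 rose by 0.46 on the signal arrays (adjusted p = 0.0116) and had a difference of 0.22 in the value table (adjusted p = 0.0875). CDX2 was detected on 1 sorafenib array and 1 DMSO array of the signal set and was not tested there. In the value table it averaged 10.97 with sorafenib and 10.59 with DMSO (0.38, no overlap, adjusted p = 0.0529). FABP2 was above the filter in neither set. The summed intestine level was 2299.8 to 3050.03 in sorafenib samples and 1788 to 1975 in DMSO samples on the signal arrays, and 3227 to 3778 in sorafenib samples and 2618 to 2999.8 in DMSO samples in the value table. The part of all these markers in the changes of the apolipoproteins was not tested.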

How the data were processed

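Per the file headers, the authors deposited each probe's signal as a linear intensity without normalization between arrays, and a detection p-value with it. The deposited value table was taken from its values to be on a log2 scale; its normalization tool is not given in the sources used here. Signals were background-corrected from detection p-values and quantile-normalized (neqc, offset 16) with limma 3.58.1 in R 4.3.3. A probe was kept where its detection p was under 0.01 on 3 or more of the 6 arrays (17115 of 47323); a value-table probe was kept where it exceeded a log2 level of 7.40, the detection threshold in uncorrected signals, in 3 or more columns (17122). The groups were compared by lmFit and a trended eBayes, two-sided and Benjamini-Hochberg adjusted over all kept probes, threshold 0.05. The number of arrays limits the precision.

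Symbols came from the platform annotation (30113 probes with 1 symbol, 8 with several, 17202 with none), and the kept probe with the highest mean stood for its gene. Members and lists were chosen with earlier results of these data known. All 10 members were named, and of each list the 2 largest rises and falls past the threshold on the signal arrays, with NR0B2, MTTP and P4HB whatever they did; further names are marked. The labels state no pairing of samples. Deviations from the group means correlated within a number at 0.34, 0.32 and 0.38 (signals) and 0.43, 0.32 and 0.67 (value table), all above 0.1. Between numbers the correlations ran from -0.35 to 0.03 (signals) and from -0.52 to 0.29 (value table). Fits with the number as a block were alternatives. Differences, errors and p-values are from fits without a block unless the block is named. Chromosomes and gene order came from RefSeq.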

Additional observations from a re-analysis of the deposited data

How the results depend on the processing

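On the signal arrays, 4582 probes and 8 of the 10 apolipoproteins passed, and with the value table as the source 3038 probes and 4 apolipoproteins passed. That source did not hold the same arrays, so arrays and processing differ together there. Its sign was the other one for APOA2 (0.094) and for APOC2 (-0.37), and the cause was not tested. Leaving out each sample in turn gave 2950 to 4344 probes and 7 to 8 apolipoproteins on the signal arrays, with 2950 without DMSO replicate 2, and 1560 to 2494 probes and 2 to 3 apolipoproteins on the value-table arrays, where 3038 probes and 4 apolipoproteins passed with all samples. The 2 were reached without sorafenib replicate 1, sorafenib replicate 2 or DMSO replicate 2; these fits hold fewer samples. With the replicate number as a block, 6748 probes and 8 apolipoproteins passed on the signal arrays, and 5456 probes and 6 apolipoproteins on the value-table arrays. Beside APOC3 and APOH in the value table, the block changed no call of an apolipoprotein. On the signal arrays APOA1, APOA5, APOB, APOC1, APOC3, APOE and APOM passed in all 15 alternatives run on them, and APOC2 and APOH in 0. In the value table APOE and APOC2 passed in all 13, APOM in 9 and APOB in 5. Not all alternatives could move a call. Median scaling of the value table called the same 3038 probes as the main fit. Taking the mean of a gene's probes left the levels of the apolipoproteins, each read by a single probe, as they were. The dose unit, the set that was measured in Huh7 cells, and the steps behind the value table are unknown. APOA5 was too dim to test in the value table. The interval of 3 against 3 arrays cannot show that a gene did not change.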
